A study of Mus musculus with 28 samples.

Results

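The subject is how the effect of the polyamine inhibitor DFMO on gene expression differed between 2 kinds of T cell culture from JMJD3-deficient mice. It was measured as an interaction: DFMO minus ctrl in non-pathogenic Th17 (Th17n) cultures, minus DFMO minus ctrl in induced regulatory T cell (iTreg) cultures, paired by animal, across all genes. The comparison used 12 of 28 libraries: 3 each of Th17n DFMO, Th17n ctrl, iTreg DFMO and iTreg ctrl, with 1 library of each kind from each of 3 animals. All 12 came from C57BL/6 mice of genotype JMJD3fl/flCD4cre (KO), in which Cre driven by the Cd4 promoter deletes the floxed gene in the T cell lineage, so that the deletion was shared by DFMO and ctrl cultures. The other 16 libraries came from 4 C57BL/6 animals labelled WT in the same 4 cultures. Naive CD4 T cells of the spleen were sorted and stimulated on plates coated with antibodies to CD3 and CD28 (1 µg/ml each), then cultured with IL-6 at 25 ng/ml plus TGF-beta 1 at 2 ng/ml (Th17n) or with TGF-beta 1 at 2 ng/ml alone (iTreg). DFMO was present at 100 µM or absent (ctrl), and live cells were sorted at 68 h. Each culture thus tests a response of cells made in vitro at 1 time point. The sources used here do not give the animals' age.

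DFMO (difluoromethylornithine) blocks ornithine decarboxylase, encoded by Odc1, the first enzyme of the path that makes putrescine, spermidine and spermine. These small cations bind RNA and DNA, and spermidine is the donor for hypusine, a modified lysine that the translation factor eIF5A needs. JMJD3, encoded by Kdm6b, removes methyl groups from lysine 27 of histone H3. TGF-beta supports both fates in CD4 T cells: with IL-6 and its factor STAT3 it favours IL-17, and without IL-6 it favours Foxp3, the factor that defines regulatory T cells.

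Promoter sequences are shown for the 2 genes with the highest and the 2 with the lowest interaction estimates among the genes eligible for naming and present in the promoter table. They are from RefSeq (GRCm38.p6), run 5′ to 3′ from 250 bases before to 50 bases after the listed start, and carry in capitals the motifs found on either strand. The motifs searched were the nuclear receptor element AGGTCA, the SMAD box CAGAC and the STAT site TTCNNNGAA.
Serpina3g (chr12:104235897-104236196, plus strand): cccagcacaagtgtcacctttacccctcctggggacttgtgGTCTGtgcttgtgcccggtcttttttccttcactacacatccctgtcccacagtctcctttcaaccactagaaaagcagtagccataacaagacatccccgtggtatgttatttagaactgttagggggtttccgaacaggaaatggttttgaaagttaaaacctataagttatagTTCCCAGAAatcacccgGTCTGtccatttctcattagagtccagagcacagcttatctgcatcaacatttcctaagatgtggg
Ccl3 (chr11:83649329-83649628, minus strand): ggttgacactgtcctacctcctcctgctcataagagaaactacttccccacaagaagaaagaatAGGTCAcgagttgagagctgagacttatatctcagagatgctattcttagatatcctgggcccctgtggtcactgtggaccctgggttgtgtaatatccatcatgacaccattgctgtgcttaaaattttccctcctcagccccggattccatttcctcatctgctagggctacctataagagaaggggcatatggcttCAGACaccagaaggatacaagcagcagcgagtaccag
Dapk2 (chr9:66157976-66158275, plus strand): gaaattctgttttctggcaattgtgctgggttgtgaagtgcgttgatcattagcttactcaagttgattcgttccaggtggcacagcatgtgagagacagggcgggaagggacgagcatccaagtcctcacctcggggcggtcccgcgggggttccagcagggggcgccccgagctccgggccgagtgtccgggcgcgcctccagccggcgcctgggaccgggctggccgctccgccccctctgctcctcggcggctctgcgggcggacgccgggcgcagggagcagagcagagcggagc
Inhba (chr13:16011601-16011900, plus strand): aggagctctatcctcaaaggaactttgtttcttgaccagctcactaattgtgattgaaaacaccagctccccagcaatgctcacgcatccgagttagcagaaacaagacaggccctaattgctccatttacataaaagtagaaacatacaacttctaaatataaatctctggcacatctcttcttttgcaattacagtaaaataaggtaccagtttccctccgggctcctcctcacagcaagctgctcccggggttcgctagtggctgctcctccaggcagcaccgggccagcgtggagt
The Serpina3g window held 2 CAGAC matches, both on the opposite strand (written GTCTG), and 1 STAT match. The Ccl3 window held 1 AGGTCA and 1 CAGAC match, and no searched letters were in the windows of Dapk2 and Inhba. Of 27025 promoters in the table, 16.0% held AGGTCA, 49.7% CAGAC and 8.47% TTCNNNGAA, and a match describes letters only. Of the 20 genes with the largest estimates, 16 were in the table.

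Libraries held 3957830 to 4732039 estimated counts in Th17n DFMO, 2226914 to 4143568 in Th17n ctrl, 3406287 to 4528484 in iTreg DFMO and 2312481 to 2911716 in iTreg ctrl of KO. Depth was therefore higher with DFMO in both cultures, without overlap in iTreg, and its part in the results was not tested. Nothing in the labels says that the cultures of an animal were replicated. With animal as a block, p-values measure how far culture effects varied between animals (3 KO and 4 WT), not the spread of their levels. Kdm6b itself (GRCm38, chr11:69398508-69413675, minus strand) ranged over 24.3 to 33.0 CPM (counts relative to library size, scaled by TMM) in Th17n DFMO KO libraries, against 36.0 to 64.0 CPM in Th17n DFMO WT libraries. In Th17n ctrl it ranged over 28.6 to 43.3 CPM in KO and 33.5 to 60.6 CPM in WT, which overlapped. In iTreg DFMO it was 19.9 to 27.7 CPM in KO and 41.9 to 59.2 CPM in WT, and in iTreg ctrl 29.1 to 33.3 CPM in KO and 38.0 to 48.8 CPM in WT. Gene-level values do not resolve the deleted part of the gene. The T cell identity of the cultures was checked against 8 T cell markers, none of which was at 0 in any KO group. Their summed level was 3308 to 3403 CPM in Th17n DFMO and 3946 to 4196 CPM in Th17n ctrl, against 3427 to 3844 CPM in iTreg DFMO and 3319 to 3697 CPM in iTreg ctrl.

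The DFMO response differed between Th17n and iTreg cultures of KO mice for 871 of 10985 genes tested, or 7.93%. The interaction was higher for 350 genes (3.19%), meaning a DFMO effect more positive in Th17n, and lower for 521 (4.74%). Of these, 289 differed at least 2-fold. Genes were called at an adjusted p under 0.05 (edgeR's quasi-likelihood test, Benjamini-Hochberg over all genes tested), with animal as a block. Within each culture DFMO moved far more genes: 5267 in Th17n (47.9%; 2426 higher and 2841 lower) and 4482 in iTreg (40.8%; 2208 higher and 2274 lower). The interaction carries the error of both effects (for Stat3 a standard error of 0.119, against 0.083 in Th17n and 0.086 in iTreg). Its count is therefore not on equal terms with theirs. The interaction estimate had a median of -0.02 log2 over all genes, a median absolute size of 0.29, and lay within 2-fold for 89.7% of genes.

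Genes that DFMO moved in both cultures mostly moved in the same direction. Of 3248 genes called in both, 3170 moved the same way and 78 in opposite ways. A further 2019 were called in Th17n alone and 1234 in iTreg alone, which by itself does not show that the effects differ. Across all 10985 genes the log2 effects of DFMO in Th17n and iTreg had a Pearson correlation of 0.626, given as a description, since both come from the same animals and genes are not independent.

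**Figure D1:**
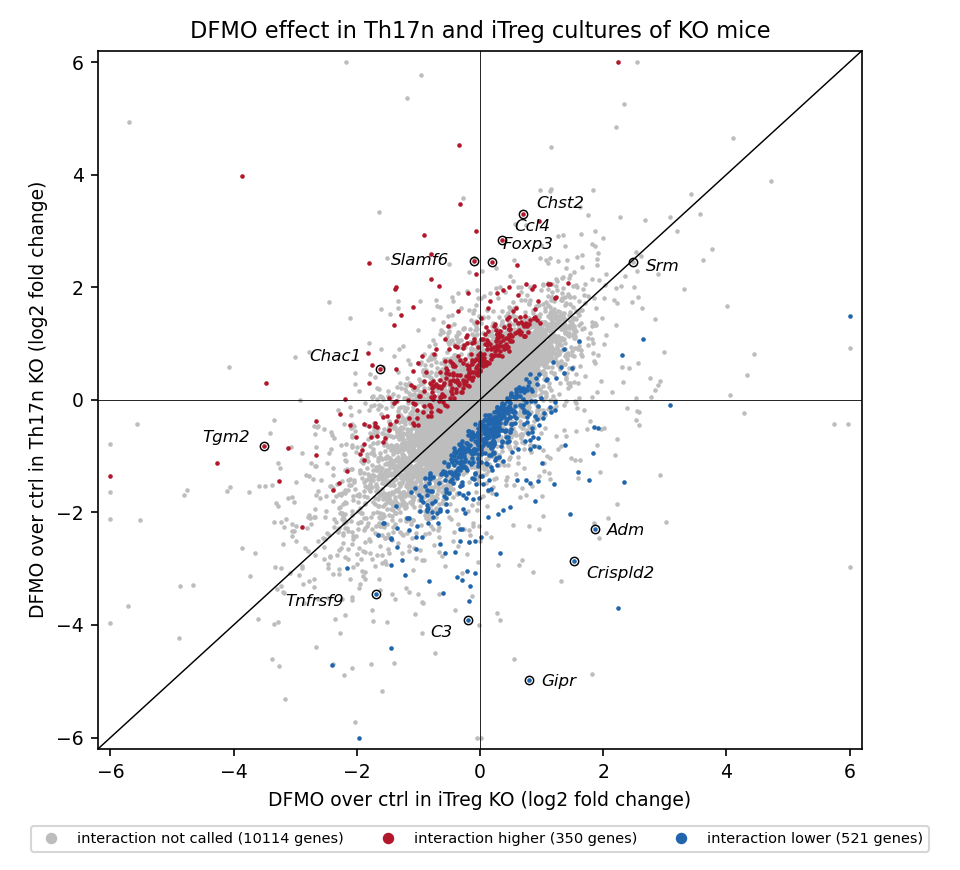
Each point is 1 of 10985 genes, with the log2 fold change of DFMO over ctrl in iTreg KO cultures on the horizontal axis and in Th17n KO cultures on the vertical axis; the diagonal marks equal effects. Red marks the 350 genes with a higher and blue the 521 with a lower interaction, and 14 genes beyond 6 log2 units are drawn at the edge. Crispld2 and Adm lie in the lower right quadrant, lowered in Th17n and raised in iTreg, while Srm lies on the diagonal.

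The 871 calls were made of several patterns, which share their libraries with the DFMO effects that describe them. Among the 350 higher genes, 131 were raised by DFMO in Th17n and not called in iTreg, 82 were raised in both, 77 were lowered in iTreg and not called in Th17n, 27 were lowered in both, 26 were raised in Th17n and lowered in iTreg, and 7 were called in neither. Among the 521 lower genes, 239 were lowered in Th17n and not called in iTreg, 118 were lowered in both, 90 were raised in iTreg and not called in Th17n, 52 were lowered in Th17n and raised in iTreg, 20 were raised in both, and 2 were called in neither.

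The balance of higher and lower calls moved with the scaling and with single libraries. With TMM and all libraries, 40.2% of calls were higher. On log2(TPM + 1) values 543 genes were higher and 311 lower (63.6% higher), and with library totals alone 912 were higher and 320 lower (74.0% higher). The first of these also uses another model, limma. The median of all genes moved to 0.10 and 0.15 log2 in these 2 settings, so the estimates below are relative to the median gene under TMM. Under TMM, 467 genes were higher and 344 lower (57.6% higher) without the Th17n ctrl library of animal 2, 376 higher and 309 lower (54.9%) without the iTreg DFMO library of animal 3, and 367 higher and 336 lower (52.2%) without the iTreg ctrl library of animal 3. Leaving out all 4 libraries of animal 1 left 286 calls, of animal 2 476 and of animal 3 362.

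The genes that define the 2 fates differed in whether the interaction could be read at all. Foxp3 (GRCm38, chrX:7573644-7595245, plus strand) had 34.4, 37.1 and 33.3 CPM in Th17n DFMO libraries, against 8.25, 8.36 and 3.78 CPM in Th17n ctrl libraries. All 3 DFMO libraries stood above all 3 ctrl libraries. In iTreg, Foxp3 had 382, 355 and 318 CPM in iTreg DFMO libraries, against 259, 343 and 314 CPM in iTreg ctrl libraries, and these groups overlapped. DFMO therefore raised Foxp3 by 2.45 log2 in Th17n (adjusted p = 1.35e-07) and changed it by 0.20 in iTreg (adjusted p = 0.337), an interaction of 2.25 ± 0.35 (SE; adjusted p = 0.000118, edgeR). Even with DFMO, the Th17n level stayed below every iTreg library. The interaction was called in all 23 alternative fits.

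Il17a, the cytokine that names Th17 cells, had 26.6, 42.8 and 34.5 CPM in Th17n DFMO libraries, against 58.7, 105 and 90.2 CPM in Th17n ctrl libraries. The Th17n groups did not overlap, and DFMO changed Il17a there by -1.28 log2 (adjusted p = 0.000319). All 6 iTreg KO libraries had 0 counts, below what 3 counts in a group would show, so no interaction can be given. Il17f, a related cytokine, had 545, 626 and 620.1 CPM in Th17n DFMO libraries, against 711, 984 and 872 CPM in Th17n ctrl libraries, a change of -0.51 log2 (adjusted p = 0.0265). In iTreg, Il17f had 0, 2.93 and 0.615 CPM in iTreg DFMO libraries, against 1.09, 0 and 1 CPM in iTreg ctrl libraries, and its interaction was not called (adjusted p = 0.553). Il23r, the IL-23 receptor that sustains Th17 cells, had 3.83, 5.19 and 4 CPM in Th17n DFMO libraries, against 6.88, 6.76 and 9.33 CPM in Th17n ctrl libraries, with a change of -0.84 log2 that missed the threshold (adjusted p = 0.0901). It had 0 counts over the 3 iTreg DFMO libraries and 2 over the 3 iTreg ctrl libraries, so no fold is given there.

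The enzyme that DFMO blocks and the one after it showed no called interaction. Odc1 averaged 159.9 ± 26.6 CPM in Th17n DFMO and 119.8 ± 13.3 CPM in Th17n ctrl, and 111 ± 5.83 CPM in iTreg DFMO and 87.3 ± 14 CPM in iTreg ctrl (SD, n = 3 each). Its interaction was 0.05 ± 0.22 log2 (adjusted p = 0.933). Srm, spermidine synthase, had 344, 384 and 424 CPM in Th17n DFMO libraries, against 65.6, 65.3 and 80.1 CPM in Th17n ctrl libraries. In iTreg, Srm had 494, 495 and 579 CPM in iTreg DFMO libraries, against 84.4, 114 and 82 CPM in iTreg ctrl libraries. The groups did not overlap in either culture. DFMO raised Srm by 2.44 log2 in Th17n and 2.49 in iTreg, and the interaction of -0.04 ± 0.22 was not called (adjusted p = 0.943). Kdm6b had an interaction of 0.06 ± 0.24 (adjusted p = 0.92).

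Among genes with a higher interaction, several were raised by DFMO in Th17n with little change in iTreg. Chst2, a sulfotransferase that helps build ligands for selectins, had 48.4, 41.1 and 43.6 CPM in Th17n DFMO libraries, against 5.96, 3.58 and 4.03 CPM in Th17n ctrl libraries. Every Th17n DFMO library exceeded every Th17n ctrl library several-fold. In iTreg, Chst2 had 9.5, 7.9 and 4.61 CPM in iTreg DFMO libraries, against 5.79, 3.7 and 4.02 CPM in iTreg ctrl libraries, which overlapped. The interaction was 2.60 ± 0.44 (adjusted p = 0.000362) and held in all 23 alternatives. Slamf6, a lymphocyte surface receptor of the SLAM family, had 41.9, 22.3 and 37.3 CPM in Th17n DFMO libraries, against 6.42, 4.77 and 6.8 CPM in Th17n ctrl libraries, without overlap. In iTreg, Slamf6 had 87, 51.9 and 81.7 CPM in iTreg DFMO libraries, against 79.6, 72 and 79 CPM in iTreg ctrl libraries, with overlap, and the interaction was 2.56 ± 0.33 (adjusted p = 1.28e-05), again called in all 23 alternatives. Tead1, a DNA-binding partner of YAP in the Hippo pathway, had 5.63, 7.92 and 4 CPM in Th17n DFMO libraries, against 0.458, 0 and 1.26 CPM in Th17n ctrl libraries, and 21.4, 24.4 and 20.9 CPM in iTreg DFMO libraries, against 21, 24.7 and 23.8 CPM in iTreg ctrl libraries. Its Th17n groups did not overlap and its iTreg groups did. The interaction was 3.06 ± 0.53 (adjusted p = 0.000439), and the call was lost on log2(TPM + 1) values (adjusted p = 0.159).

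Tgm2 and Ccl5 were lowered in both cultures, and more in iTreg. Tgm2, the TGF-beta target transglutaminase 2 (GRCm38, chr2:158116402-158146436, minus strand), had 901, 859 and 864 CPM in Th17n DFMO libraries, against 1482, 1712 and 1466 CPM in Th17n ctrl libraries. In iTreg, Tgm2 had 8.32, 9.48 and 8.3 CPM in iTreg DFMO libraries, against 92.3, 102 and 103 CPM in iTreg ctrl libraries. Neither pair of groups overlapped, and DFMO changed Tgm2 by -0.82 log2 in Th17n and -3.50 in iTreg. The 3 animals gave paired interactions of 2.67, 2.36 and 2.78 log2, and the fit gave 2.68 ± 0.30 (adjusted p = 1.37e-06), called in all 23 alternatives. Ccl5, a chemokine of activated T cells, had 3.38, 6.68 and 2.1 CPM in Th17n DFMO libraries, against 7.79, 7.56 and 10.8 CPM in Th17n ctrl libraries, and 0.594, 2.26 and 1.23 CPM in iTreg DFMO libraries, against 19.2, 22.6 and 42.5 CPM in iTreg ctrl libraries. Groups did not overlap in either culture. The interaction was 3.15 ± 0.69 (adjusted p = 0.00366), lost in 1 of 23 alternatives, on log2(TPM + 0.1) values (adjusted p = 0.0666).

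Xaf1, an interferon-induced gene linked to cell death, moved in opposite ways. It had 5.4, 4.95 and 6.53 CPM in Th17n DFMO libraries, against 2.75, 0.398 and 1.26 CPM in Th17n ctrl libraries. In iTreg, Xaf1 had 11.9, 8.8 and 12 CPM in iTreg DFMO libraries, against 31.1, 28 and 24.8 CPM in iTreg ctrl libraries. Both pairs of groups were separate, and the interaction was 3.36 ± 0.69 (adjusted p = 0.00206), called in all 23 alternatives. Bcl2a1d, an anti-apoptotic relative of Bcl2, had 11, 6.43 and 13.7 CPM in Th17n DFMO libraries, against 4.58, 4.77 and 1.51 CPM in Th17n ctrl libraries, and 2.97, 6.09 and 8.3 CPM in iTreg DFMO libraries, against 9.41, 16 and 11.4 CPM in iTreg ctrl libraries. Its interaction was 2.74 ± 0.63 (adjusted p = 0.006), and it shares near-identical sequence with other Bcl2a1 copies, so reads may be split among them. The call was lost without animal 3 (adjusted p = 0.0823) and without its Th17n ctrl library (0.0511).

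Ccl3, Ccl20 and Serpina3g, like Tead1 and Xaf1 in Th17n ctrl, rested on few counts in at least 1 group. Ccl3, a chemokine that attracts monocytes and T cells, had 10.6, 7.67 and 12.8 CPM in Th17n DFMO libraries, against 0.458, 0 and 0 CPM in Th17n ctrl libraries. Those Th17n libraries held 139 counts with DFMO and 1 without, a scaled ratio of 91.0 (95% exact interval 16.1 to 3619, counting error only). In iTreg, Ccl3 had 42.5, 83.5 and 63.3 CPM in iTreg DFMO libraries, against 9.05, 21.8 and 9.7 CPM in iTreg ctrl libraries, and groups did not overlap. The fitted interaction of 3.94 depends on the prior count; its adjusted p was 0.00653, and it was lost without the replicate block (0.0559), without animal 3 (0.0903) and without the Th17n ctrl library of animal 3 (0.0667). Ccl20, the ligand of the Th17 receptor CCR6, had 51.3, 53.2 and 69.5 CPM in Th17n DFMO libraries, against 9.63, 20.3 and 10.8 CPM in Th17n ctrl libraries, without overlap. In iTreg, Ccl20 had 0, 1.58 and 1.23 CPM in iTreg DFMO libraries, against 1.45, 2.06 and 1.67 CPM in iTreg ctrl libraries, and the interaction of 2.95 ± 0.81 (adjusted p = 0.022) was lost without animal 1 (0.158), without animal 3 (0.143) and without 5 single libraries, namely the iTreg ctrl libraries of animals 1, 2 and 3, the iTreg DFMO library of animal 1 and the Th17n ctrl library of animal 3. Serpina3g, an intracellular protease inhibitor with close paralogs among which reads may be split, had 1.35, 2.23 and 4 CPM in Th17n DFMO libraries, against 0.917, 0 and 0.504 CPM in Th17n ctrl libraries, and 5.94, 0.903 and 7.68 CPM in iTreg DFMO libraries, against 19.9, 11.5 and 15.7 CPM in iTreg ctrl libraries. Its interaction of 4.24 ± 1.23 (adjusted p = 0.0312) was lost without any of the 3 animals and without 8 single libraries, with adjusted p reaching 0.212.

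**Figure D2:**
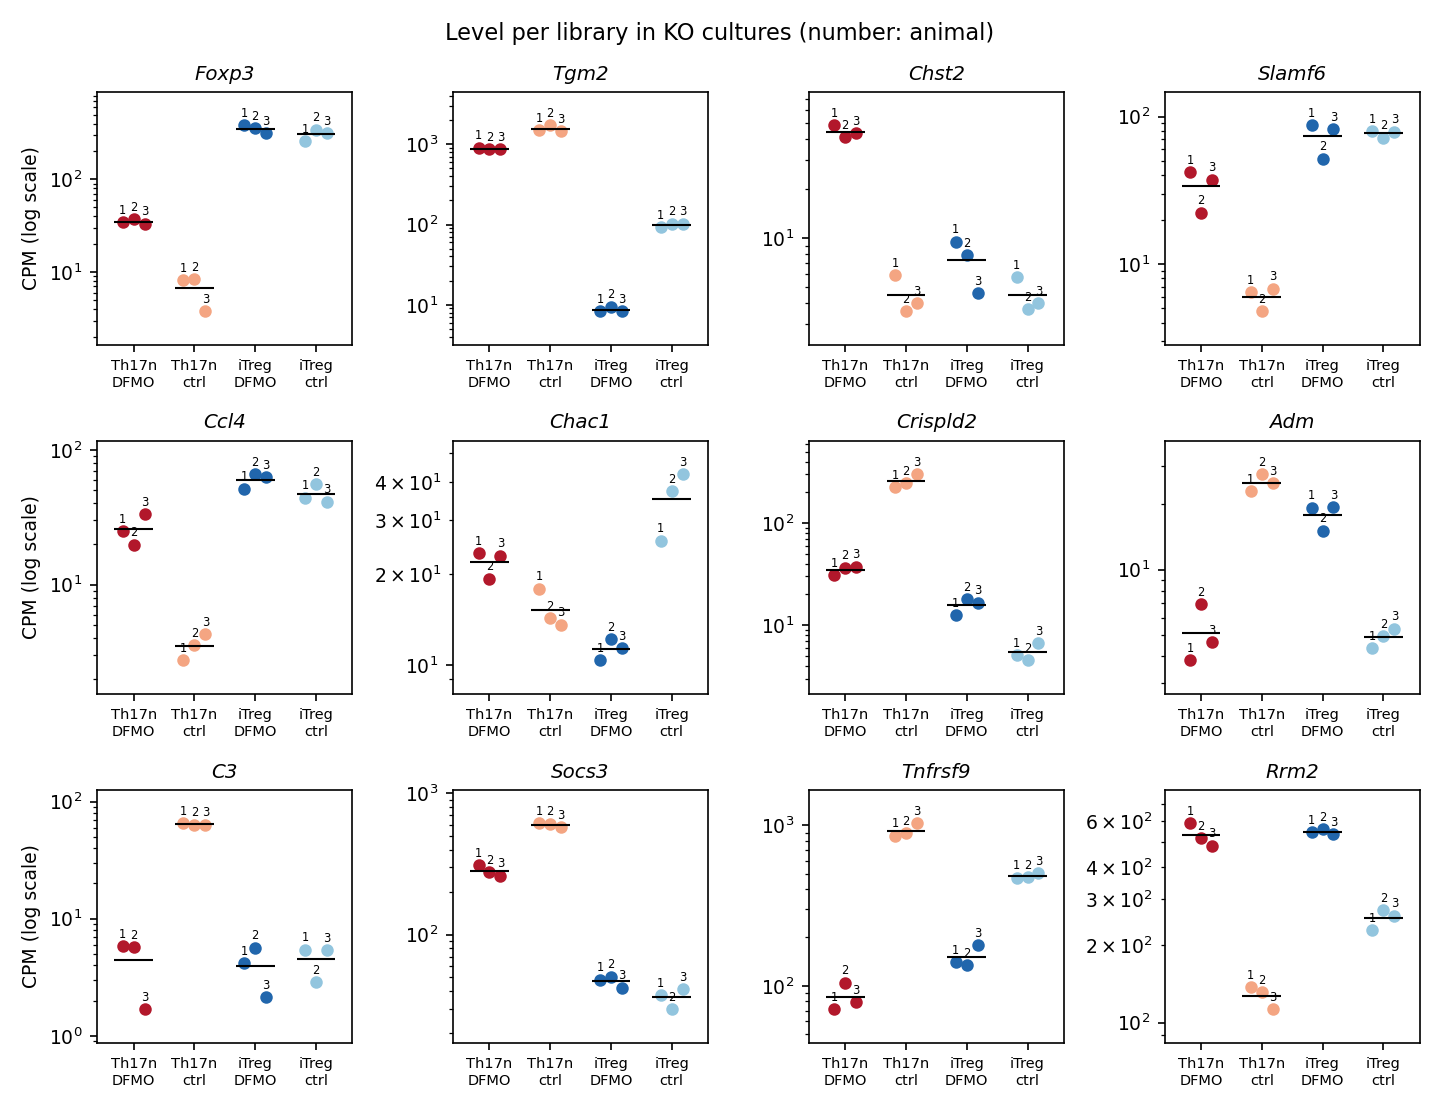
Level of 12 genes in every KO library, in CPM on a log scale, with Th17n DFMO, Th17n ctrl, iTreg DFMO and iTreg ctrl from left to right; points are libraries numbered by animal and lines are means of 3. Foxp3, Chst2, Slamf6 and Ccl4 differed between DFMO and ctrl mainly in Th17n, Tgm2 and Chac1 more in iTreg, and Crispld2 and Adm moved in opposite directions in the 2 cultures.

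Among genes with a lower interaction, Crispld2 had the smallest adjusted p of the named genes. Crispld2 encodes a secreted protein (GRCm38, chr8:119992438-120052793, plus strand) and had 31.1, 36.6 and 37.5 CPM in Th17n DFMO libraries, against 226, 244 and 299 CPM in Th17n ctrl libraries. In iTreg, Crispld2 had 12.5, 18.1 and 16.6 CPM in iTreg DFMO libraries, against 5.07, 4.52 and 6.69 CPM in iTreg ctrl libraries. Neither pair overlapped. DFMO changed it by -2.87 log2 in Th17n and by 1.53 in iTreg, an interaction of -4.39 ± 0.28 (adjusted p = 3.07e-11). Adm, which encodes the vasodilator peptide adrenomedullin, behaved alike. It had 3.83, 6.93 and 4.63 CPM in Th17n DFMO libraries, against 22.9, 27.5 and 25 CPM in Th17n ctrl libraries, and 19.3, 15.1 and 19.4 CPM in iTreg DFMO libraries, against 4.34, 4.94 and 5.35 CPM in iTreg ctrl libraries, without overlap in either culture, and its interaction was -4.16 ± 0.40 (adjusted p = 1.4e-07). Both calls held in all 23 alternatives. Lrp1, an endocytic receptor, had 2.03, 5.44 and 4.84 CPM in Th17n DFMO libraries, against 16, 17.1 and 16.6 CPM in Th17n ctrl libraries, and 6.53, 7.45 and 7.07 CPM in iTreg DFMO libraries, against 1.81, 1.65 and 4.02 CPM in iTreg ctrl libraries, again with separate groups. Its interaction of -3.49 ± 0.50 (adjusted p = 4.86e-05) was lost on TPM values (adjusted p = 0.0594 and 0.077 for pseudocounts of 1 and 0.1).

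C3, Gipr, Ptpn14 and Nhsl1 were lowered in Th17n from a level that iTreg cultures did not reach. C3, the central component of complement, had 5.85, 5.69 and 1.68 CPM in Th17n DFMO libraries, against 65.1, 63.7 and 63.8 CPM in Th17n ctrl libraries. In iTreg, C3 had 4.16, 5.64 and 2.15 CPM in iTreg DFMO libraries, against 5.43, 2.88 and 5.35 CPM in iTreg ctrl libraries, where groups overlapped. With DFMO the Th17n libraries overlapped the iTreg libraries. The interaction was -3.71 ± 0.50 (adjusted p = 1.77e-05), held in all 23 alternatives. Gipr, the receptor of a gut hormone that promotes insulin release, had 1.8, 4.21 and 2.74 CPM in Th17n DFMO libraries, against 83.4, 94.7 and 95.5 CPM in Th17n ctrl libraries. In iTreg KO it had 5 counts over the DFMO and 2 over the ctrl libraries, a ratio of 1.85 (95% exact interval 0.303 to 19.4, counting error only). The fitted interaction of -5.77 thus depends on the prior count (adjusted p = 0.0043, called in all 23 alternatives). Ptpn14, a tyrosine phosphatase, had 0.45, 1.24 and 1.47 CPM in Th17n DFMO libraries, against 12.4, 14.3 and 11.8 CPM in Th17n ctrl libraries, and 2.08, 1.81 and 1.23 CPM in iTreg DFMO libraries, against 0.724, 4.11 and 1.34 CPM in iTreg ctrl libraries. Its interaction was -3.39 ± 0.87 (adjusted p = 0.0143); it was lost without animal 1 (0.251), without animal 3 (0.0665), and without the Th17n DFMO, iTreg DFMO or iTreg ctrl library of animal 1. Nhsl1 had 0.675, 3.71 and 2.1 CPM in Th17n DFMO libraries, against 19.7, 21.1 and 22.4 CPM in Th17n ctrl libraries, and 0.594, 1.81 and 1.54 CPM in iTreg DFMO libraries, against 3.26, 0.411 and 0.669 CPM in iTreg ctrl libraries. Its interaction of -3.15 ± 0.92 (adjusted p = 0.0317) was lost in 11 of 23 alternatives, among them those without animal 2 (0.176), without animal 3 (0.265) and without 8 single libraries.

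Spib, Dapk2 and Inhba completed the lower genes. Spib, an ETS-family transcription factor, was raised in iTreg. It had 0.9, 1.73 and 1.89 CPM in Th17n DFMO libraries, against 3.67, 0.398 and 1.26 CPM in Th17n ctrl libraries, which overlapped. In iTreg, Spib had 39.2, 29.6 and 40.3 CPM in iTreg DFMO libraries, against 5.79, 2.06 and 5.02 CPM in iTreg ctrl libraries, without overlap. The interaction was -3.17 ± 0.79 (adjusted p = 0.0114), lost without animal 1 (0.301), without animal 3 (0.0582) and without the Th17n ctrl library of animal 1 (0.187). Dapk2, a kinase linked to cell death and autophagy, had 0, 0 and 0 CPM in Th17n DFMO libraries, against 3.67, 5.97 and 11.3 CPM in Th17n ctrl libraries. That was 0 counts against 68, or 34.6-fold lower with DFMO in Th17n, taking a floor of 3 counts over the group. The exact 95% interval began at 27.4-fold lower (counting error only). In iTreg, Dapk2 had 3.86, 3.39 and 6.15 CPM in iTreg DFMO libraries, against 17.7, 15.6 and 17.7 CPM in iTreg ctrl libraries, a change of -1.97 log2. The interaction call (adjusted p = 0.00111) was lost on log2(TPM + 1) values (0.39) and without animal 3 (0.0513).

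Inhba, which encodes the activin A subunit of the TGF-beta family, rose with DFMO in both cultures. It had 103, 91.8 and 105 CPM in Th17n DFMO libraries, against 30.3, 32.2 and 44.1 CPM in Th17n ctrl libraries. In iTreg, Inhba had 5.05, 1.35 and 7.07 CPM in iTreg DFMO libraries, against 0, 0 and 0 CPM in iTreg ctrl libraries. That was 46 counts against 0, or 11.35-fold higher with the floor of 3 counts over the group. The exact 95% interval began at 8.87-fold higher (counting error only). With no counts in iTreg ctrl, no interaction size can be given; the call (adjusted p = 0.0206) was lost in 7 of 23 alternatives, without animal 1 (0.134), animal 3 (0.198), any single iTreg ctrl library, the iTreg DFMO library of animal 3, and on log2(TPM + 1) values (0.864).

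**Figure D3:**
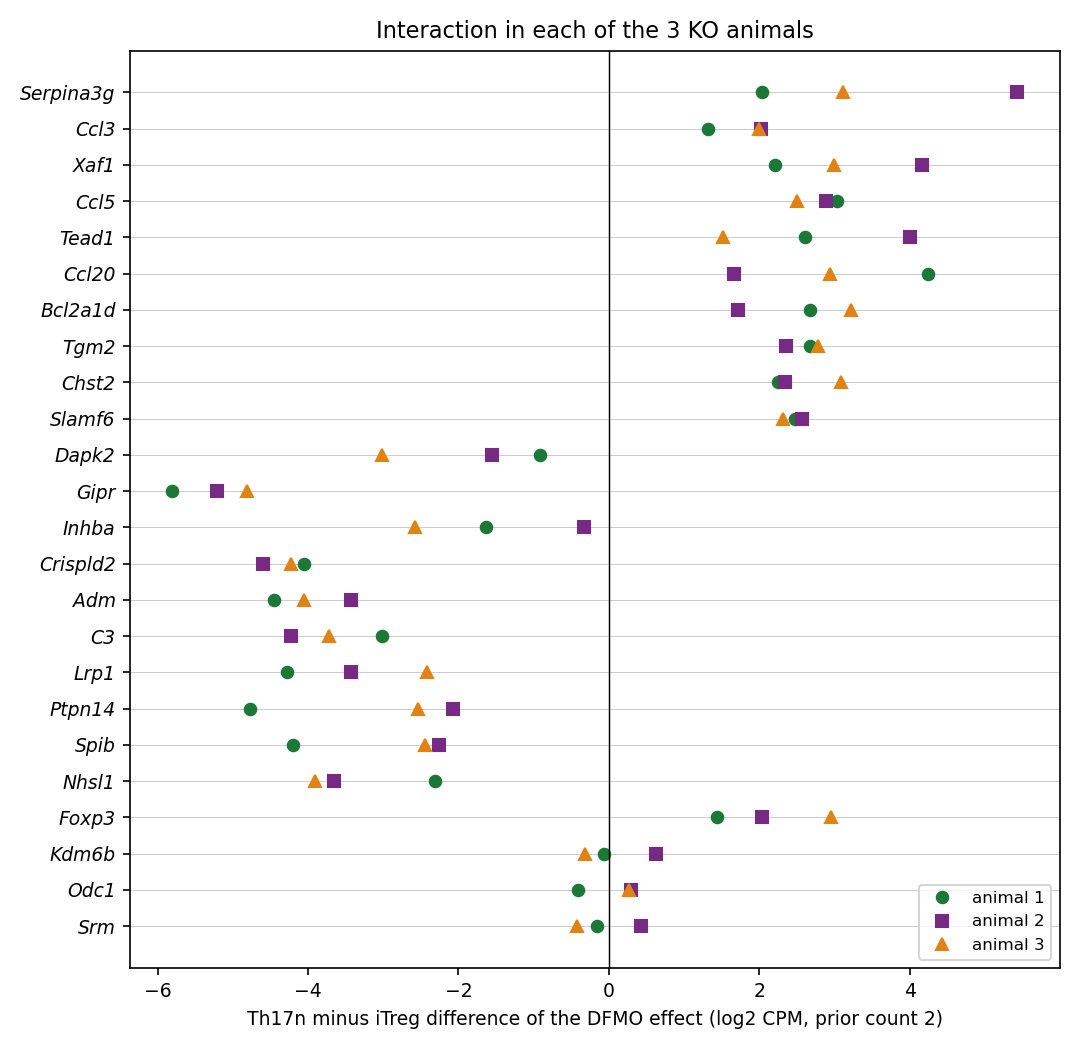
Interaction in each KO animal for the 10 genes with the highest and 10 with the lowest estimates and 4 genes always reported; the horizontal axis is the Th17n minus iTreg difference of the DFMO effect in log2 CPM with a prior count of 2, which shrinks genes of few counts, such as Dapk2 and Inhba, relative to the fit. All 3 animals lie on the same side of 0 for the first 20 genes, as their selection required, while Kdm6b, Odc1 and Srm lie on both sides.

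Of the 78 genes moved in opposite ways, 66 had the same pair of opposite signs in WT, with no share over all genes given beside it. The 52 lowered in Th17n and raised in iTreg included, besides Crispld2, Adm and Lrp1, the cytokine Lif and 3 genes of cytokine signalling, Socs3, Il4ra and Il2ra. Lif had 102, 123 and 98.5 CPM in Th17n DFMO libraries, against 127, 154 and 123 CPM in Th17n ctrl libraries, and 82, 57.5 and 56.2 CPM in iTreg DFMO libraries, against 32.6, 33.7 and 29.1 CPM in iTreg ctrl libraries. Neither pair of groups overlapped, though the Th17n groups nearly met, with an interaction of -1.35 ± 0.20 (adjusted p = 5.31e-05). The 26 raised in Th17n and lowered in iTreg included Xaf1, Bcl2a1d, Chac1, Tox, Cd200 and Mthfd2.

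The response to IL-6 and STAT3 was the list with the largest share of lower genes among the 34 pathway lists. The members were chosen from general knowledge, with earlier results of these data known. Of 12 members tested, 7 were lower and 0 higher, beside 4.74% of all genes lower, and the median interaction was -0.69 against -0.02 for all genes. Socs3, the feedback inhibitor of STAT3, had 309, 278 and 262 CPM in Th17n DFMO libraries, against 612, 611 and 577 CPM in Th17n ctrl libraries, without overlap. In iTreg, Socs3 had 48.1, 50.3 and 42.1 CPM in iTreg DFMO libraries, against 37.3, 29.6 and 41.2 CPM in iTreg ctrl libraries, also without overlap, and the interaction was -1.46 ± 0.16 (adjusted p = 1.19e-06). Pim2, a survival kinase, had 73.6, 92.5 and 85.5 CPM in Th17n DFMO libraries, against 328, 343 and 391 CPM in Th17n ctrl libraries, and 99.8, 95 and 130.0 CPM in iTreg DFMO libraries, against 174, 172 and 199 CPM in iTreg ctrl libraries. It was lowered in both cultures, more so in Th17n, with an interaction of -1.32 ± 0.15 (adjusted p = 1.87e-06). Il4ra, the IL-4 receptor chain, averaged 719 ± 62.3 CPM in Th17n DFMO and 959 ± 43.8 CPM in Th17n ctrl, and 408 ± 10 CPM in iTreg DFMO and 275 ± 38.2 CPM in iTreg ctrl (SD, n = 3 each), with an interaction of -0.98 ± 0.14 (adjusted p = 4.37e-05). Cish, a feedback inhibitor of STAT5, averaged 659 ± 52 CPM in Th17n DFMO and 745 ± 25.6 CPM in Th17n ctrl, and 844 ± 19.2 CPM in iTreg DFMO and 618 ± 14.9 CPM in iTreg ctrl, with an interaction of -0.63 ± 0.11 (adjusted p = 0.000425). These 4 calls held in all 23 alternatives. Bcl3, Pim1 and Mcl1 were also lower. The list kept 4 lower members without animal 1 and 4 without animal 3.

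Of 12 Th17 transcription factors and signal genes, 2 were lower, beside 4.74% of all genes, with a median of -0.19. DFMO lowered 7 of the 12 in Th17n and 8 in iTreg, and raised 0 in each. Over all 10985 genes, DFMO lowered 2841 in Th17n and 2274 in iTreg, and raised 2426 and 2208. Stat3 had 520.4, 501 and 444 CPM in Th17n DFMO libraries, against 961, 928 and 969 CPM in Th17n ctrl libraries, without overlap. In iTreg, Stat3 had 269, 240.1 and 259 CPM in iTreg DFMO libraries, against 351, 297 and 302 CPM in iTreg ctrl libraries, also separate, and the interaction was -0.66 ± 0.12 (adjusted p = 0.000632; 0.0561 and 0.0651 on TPM values with pseudocounts of 1 and 0.1). Irf4, which T cell receptor signals induce, averaged 655 ± 72 CPM in Th17n DFMO and 915 ± 15.5 CPM in Th17n ctrl, and 219 ± 21 CPM in iTreg DFMO and 184 ± 23.7 CPM in iTreg ctrl, with an interaction of -0.74 ± 0.16 (adjusted p = 0.00336, lost without animal 1, 0.0807, and without animal 3, 0.0831). Under library totals alone, 2 members of this list were higher and 2 lower. Of 16 Th17 cytokines and receptors, Ccl20 was higher and Lif and Il6ra were lower, beside 3.19% and 4.74% of all genes. Il6ra, a chain of the IL-6 receptor, had an interaction of -0.90 ± 0.26 (adjusted p = 0.0293) and kept the call in 6 of 23 alternatives.

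Receptors and ligands of the TNF superfamily were lower for 7 of 19 members and higher for 1, beside 4.74% and 3.19% of all genes. The median was -0.32. Tnfrsf9 (4-1BB), a costimulatory receptor, had 71.4, 104 and 79.4 CPM in Th17n DFMO libraries, against 859.6, 894 and 1025 CPM in Th17n ctrl libraries. In iTreg, Tnfrsf9 had 140.2, 135 and 179 CPM in iTreg DFMO libraries, against 470.3, 473 and 502 CPM in iTreg ctrl libraries. It was lowered in both cultures without overlap, with changes of -3.45 log2 in Th17n and -1.68 in iTreg, an interaction of -1.77 ± 0.18 (adjusted p = 4.95e-07, held in all 23 alternatives). Ltb, the membrane partner of lymphotoxin, was raised in both, and more in iTreg: it averaged 533 ± 51.6 CPM in Th17n DFMO and 408 ± 42.4 CPM in Th17n ctrl, and 1052 ± 151 CPM in iTreg DFMO and 448 ± 58.4 CPM in iTreg ctrl, with an interaction of -0.85 ± 0.16 (adjusted p = 0.00128, lost without animal 1, 0.0617). Tnfrsf25, the receptor DR3, averaged 108 ± 13.2 CPM in Th17n DFMO and 145 ± 9.53 CPM in Th17n ctrl, and 89.8 ± 11.3 CPM in iTreg DFMO and 63.2 ± 6.8 CPM in iTreg ctrl, with an interaction of -0.92 ± 0.18 (adjusted p = 0.00172, lost without animal 1, 0.0677). Cd40lg, the T cell signal to B cells, was the higher member. It averaged 47.2 ± 5.31 CPM in Th17n DFMO and 23.3 ± 1.93 CPM in Th17n ctrl, and 37.8 ± 5.14 CPM in iTreg DFMO and 34.5 ± 0.319 CPM in iTreg ctrl, an interaction of 0.89 ± 0.20 (adjusted p = 0.00513, lost without animal 2, 0.0745, and animal 3, 0.088). Lta, Tnfrsf8, Tnfrsf18 and Cd27 were the other lower members, and the lower count fell to 2, 3 and 3 without animals 1, 2 and 3.

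Growth factor cytokines and receptors were lower for 5 of 12 and higher for 1 (Il2), beside 4.74% and 3.19% of all genes. The median was -0.34. Il2ra, the high-affinity IL-2 receptor chain, had 1125, 1255 and 1179 CPM in Th17n DFMO libraries, against 1513, 1612 and 1632 CPM in Th17n ctrl libraries. In iTreg, Il2ra had 1180, 1289 and 1180 CPM in iTreg DFMO libraries, against 902, 1004 and 1000 CPM in iTreg ctrl libraries. Neither pair overlapped, and the interaction was -0.75 ± 0.09 (adjusted p = 2.66e-06), held in all 23 alternatives. Il27ra, with an interaction of -0.80 ± 0.20 (adjusted p = 0.0127), and Osm, with -0.90 ± 0.27 (adjusted p = 0.0338), kept the call in 14 and 7 of 23 alternatives.

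Treg genes went both ways in the interaction: of 18 tested, 4 were higher and 5 lower, beside 3.19% and 4.74% of all genes. The median was 0.03. DFMO lowered 11 of the 18 in Th17n and 10 in iTreg, and raised 3 in each. Over all 10985 genes, DFMO lowered 2841 in Th17n and 2274 in iTreg, and raised 2426 and 2208. Besides Foxp3, the members with a higher interaction were Ctla4, Nrp1 and Lag3. Ctla4, an inhibitory receptor, had 152, 214 and 178 CPM in Th17n DFMO libraries, against 259, 336 and 335 CPM in Th17n ctrl libraries, and 42.2, 44.7 and 45.5 CPM in iTreg DFMO libraries, against 150.2, 186 and 151 CPM in iTreg ctrl libraries. It was lowered in both cultures, more in iTreg, with an interaction of 1.10 ± 0.16 (adjusted p = 6e-05, held in all 23 alternatives). The lower members were Il2ra, Tnfrsf9, Tnfrsf18, Ikzf4 and Lrrc32. Lrrc32 encodes GARP, which holds latent TGF-beta on the surface of regulatory T cells. It had 15.3, 19 and 13.7 CPM in Th17n DFMO libraries, against 65.1, 54.5 and 69.8 CPM in Th17n ctrl libraries, and 60, 32.5 and 42.4 CPM in iTreg DFMO libraries, against 70.6, 51 and 71.9 CPM in iTreg ctrl libraries, where the iTreg groups overlapped. Its interaction was -1.44 ± 0.31 (adjusted p = 0.00295), lost without animal 1 (0.111) and on TPM values (0.0939 and 0.1). Lrrc32 was the only called gene of 16 TGF-beta ligands, receptors and SMADs.

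Of 12 TGF-beta targets, Tgm2 was higher while Tnfrsf18 and Ecm1 were lower, beside 3.19% and 4.74% of all genes. The median was -0.37. Tnfrsf18 (GITR) averaged 367 ± 28.9 CPM in Th17n DFMO and 1143 ± 56.3 CPM in Th17n ctrl, and 417 ± 31.1 CPM in iTreg DFMO and 905 ± 42.9 CPM in iTreg ctrl, an interaction of -0.52 ± 0.13 (adjusted p = 0.0129). Ecm1, an extracellular matrix protein, averaged 67 ± 11.1 CPM in Th17n DFMO and 282 ± 21.1 CPM in Th17n ctrl, and 11.9 ± 3.34 CPM in iTreg DFMO and 26.4 ± 4.32 CPM in iTreg ctrl, an interaction of -0.91 ± 0.28 (adjusted p = 0.0402). These kept their calls in 13 and 7 of 23 alternatives, and neither was called when all libraries of any 1 animal were left out.

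Chemokines had the largest share of higher genes, 4 of 6 tested, beside 3.19% of all genes. Besides Ccl3, Ccl5 and Ccl20 this was Ccl4, a chemokine of activated T cells and macrophages. Ccl4 had 25, 19.8 and 33.5 CPM in Th17n DFMO libraries, against 2.75, 3.58 and 4.28 CPM in Th17n ctrl libraries, without overlap. In iTreg, Ccl4 had 51.4, 65.7 and 63 CPM in iTreg DFMO libraries, against 44.2, 55.9 and 41.2 CPM in iTreg ctrl libraries, with overlap, and its interaction was 2.49 ± 0.38 (adjusted p = 0.000123, held in all 23 alternatives). Of 17 chemokine receptors and homing genes, Ccr4 was lower, averaging 155 ± 10.9 CPM in Th17n DFMO and 191 ± 14.3 CPM in Th17n ctrl, and 169.6 ± 8.87 CPM in iTreg DFMO and 121 ± 7.85 CPM in iTreg ctrl, with an interaction of -0.79 ± 0.16 (adjusted p = 0.00206, lost without animal 3, 0.0738, and on log2(TPM + 0.1) values, 0.0531). Over all genes, 4.74% were lower. Ccr4 and Irf4 were the 2 called genes of 7 Th2 and Th9 genes, beside 7.93% of all genes called. None of 12 Th1 genes was called, although DFMO lowered 6 of them in each culture. Over all 10985 genes, DFMO lowered 2841 in Th17n and 2274 in iTreg.

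Immediate early genes, which antigen receptor signals switch on, were higher for 4 of 21, beside 3.19% of all genes, and lower for 0. The median was 0.05. Nr4a1 (Nur77) had 177, 187 and 139 CPM in Th17n DFMO libraries, against 61, 79.2 and 60.7 CPM in Th17n ctrl libraries. In iTreg, Nr4a1 had 304, 211 and 230.2 CPM in iTreg DFMO libraries, against 203, 211 and 215 CPM in iTreg ctrl libraries. The Th17n groups were separate and the iTreg groups overlapped, with an interaction of 1.08 ± 0.20 (adjusted p = 0.000632, held in all 23 alternatives). Egr1 had an interaction of 1.34 ± 0.28 (adjusted p = 0.00266, lost without animal 2, 0.118), Atf3 of 1.36 ± 0.29 (adjusted p = 0.00337, lost without animal 1, 0.0967) and Nr4a3 of 0.97 ± 0.24 (adjusted p = 0.0106, lost without animal 1, 0.0847, animal 3, 0.136, and the Th17n ctrl library of animal 3, 0.0558). Without animal 1 only 2 members were called.

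Follicular helper (Tfh) genes were higher for 3 of 10, beside 3.19% of all genes, with a median of 0.31. Cd200, the ligand of an inhibitory receptor, had 289, 260.2 and 286 CPM in Th17n DFMO libraries, against 225, 193 and 242 CPM in Th17n ctrl libraries, and 71.3, 77.6 and 73.1 CPM in iTreg DFMO libraries, against 142, 118 and 119 CPM in iTreg ctrl libraries. It moved in opposite directions without overlap, with an interaction of 1.10 ± 0.13 (adjusted p = 2.12e-06, held in all 23 alternatives). Tox, a nuclear factor of T cell development and exhaustion, averaged 11.3 ± 2.98 CPM in Th17n DFMO and 6.56 ± 0.449 CPM in Th17n ctrl, and 28.9 ± 4.48 CPM in iTreg DFMO and 48.4 ± 9.57 CPM in iTreg ctrl, an interaction of 1.55 ± 0.30 (adjusted p = 0.00148, lost without animal 3, 0.0711). Sh2d1a (SAP), the adaptor of SLAM receptors such as Slamf6, averaged 64.8 ± 10.3 CPM in Th17n DFMO and 68.6 ± 14.1 CPM in Th17n ctrl, and 73.4 ± 12.2 CPM in iTreg DFMO and 129.7 ± 3.87 CPM in iTreg ctrl, an interaction of 0.74 ± 0.17 (adjusted p = 0.00623, lost without animal 1, 0.14, and without the block, 0.0525). Among 12 naive and memory genes, Slamf6 was higher and Bach2 and Satb1 lower, beside 3.19% and 4.74% of all genes. The estimates of Bach2, -0.41 ± 0.12 (adjusted p = 0.0394), and Satb1, -0.52 ± 0.16 (adjusted p = 0.0471), kept the call in 3 and 2 of 23 alternatives, and Bach2 was 0.070 and 0.073 on the TPM scales with pseudocounts of 1 and 0.1.

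Most DNA replication genes were raised by DFMO in both cultures. In Th17n 30 of 32 rose and in iTreg 25 rose, beside 2426 and 2208 of all 10985 genes. Their median changes were 0.99 and 0.43 log2. The interaction was higher for 13 of 32, beside 3.19% of all genes, lower for 0 and not called for 19, with a median of 0.52. Rrm2, a subunit of ribonucleotide reductase that makes deoxynucleotides, had 588, 516 and 482 CPM in Th17n DFMO libraries, against 137, 131 and 113 CPM in Th17n ctrl libraries. In iTreg, Rrm2 had 545, 561 and 535 CPM in iTreg DFMO libraries, against 227, 272 and 259 CPM in iTreg ctrl libraries. With DFMO the Th17n and iTreg levels overlapped, while without it Th17n was the lower. The interaction was 0.95 ± 0.14 (adjusted p = 4.45e-05). Cdc6, which loads the MCM helicase, had 120.4, 125 and 107 CPM in Th17n DFMO libraries, against 29.3, 25.9 and 33.5 CPM in Th17n ctrl libraries, and 122, 126 and 120.2 CPM in iTreg DFMO libraries, against 74.6, 67 and 64.2 CPM in iTreg ctrl libraries, an interaction of 1.12 ± 0.20 (adjusted p = 0.000585). Lig1, the replicative DNA ligase, had an interaction of 0.68 ± 0.12 (adjusted p = 0.000585) and Orc6, of the origin recognition complex, of 0.82 ± 0.15 (adjusted p = 0.00106). These 4 held in all 23 alternatives. The list kept 7, 9 and 7 higher members without animals 1, 2 and 3, had 10 without the block, and had 28 with library totals alone, with 0 lower in each.

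G2 and M phase genes were higher for 4 of 24, beside 3.19% of all genes, and lower for 0, with a median of 0.37. DFMO raised 14 of them in Th17n and 4 in iTreg, beside 2426 and 2208 of all 10985 genes. Kif11, a spindle motor, averaged 39.2 ± 7.02 CPM in Th17n DFMO and 28.7 ± 1.42 CPM in Th17n ctrl, and 33.8 ± 3.76 CPM in iTreg DFMO and 42.7 ± 6.18 CPM in iTreg ctrl, an interaction of 0.76 ± 0.19 (adjusted p = 0.0139). Birc5 (survivin) averaged 230.0 ± 21.1 CPM in Th17n DFMO and 102 ± 20.1 CPM in Th17n ctrl, and 219.7 ± 11.6 CPM in iTreg DFMO and 149 ± 9.07 CPM in iTreg ctrl, an interaction of 0.62 ± 0.17 (adjusted p = 0.0227). The proliferation marker Mki67, with 0.48 ± 0.15 (adjusted p = 0.0436), and the checkpoint kinase Bub1b, with 0.54 ± 0.17 (adjusted p = 0.0455), were nearest the threshold. None of the 4 kept its call without animal 1 or without animal 3, and 15 members were higher with library totals alone. Among 14 p53 targets, the cell cycle inhibitor Cdkn1a was lower, beside 4.74% of all genes. It had 208, 241 and 214 CPM in Th17n DFMO libraries, against 460.3, 486 and 441 CPM in Th17n ctrl libraries, and 178, 247 and 199 CPM in iTreg DFMO libraries, against 260.3, 268 and 292 CPM in iTreg ctrl libraries, with an interaction of -0.66 ± 0.13 (adjusted p = 0.00183, lost without animal 2, 0.0585).

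Serine and one-carbon metabolism, which supplies thymidine and purine synthesis, was higher for 5 of 12, beside 3.19% of all genes, and lower for 0. The median was 0.35. Mthfd2, a mitochondrial folate enzyme, had 232, 229 and 232 CPM in Th17n DFMO libraries, against 185, 185 and 183 CPM in Th17n ctrl libraries. In iTreg, Mthfd2 had 239, 239.9 and 244 CPM in iTreg DFMO libraries, against 344, 331 and 338 CPM in iTreg ctrl libraries. The opposite movements were small but without overlap, and the interaction was 0.81 ± 0.11 (adjusted p = 1.98e-05, held in all 23 alternatives). Tyms, which makes thymidylate, averaged 146 ± 13.5 CPM in Th17n DFMO and 48.2 ± 2.61 CPM in Th17n ctrl, and 257 ± 18.1 CPM in iTreg DFMO and 138 ± 11.6 CPM in iTreg ctrl, an interaction of 0.71 ± 0.14 (adjusted p = 0.00162, lost without animal 3, 0.0769). Shmt2 had an interaction of 0.58 ± 0.15 (adjusted p = 0.0139, kept in 19 of 23 alternatives). Psph was also higher. Without animal 3, 1 member was called.

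The ATF4 stress response was higher for 5 of 15, beside 3.19% of all genes, and lower for 0, with a median of 0.35. DFMO lowered 3 of 15 in Th17n and 8 in iTreg, and raised 3 in Th17n and 1 in iTreg. Over all 10985 genes, DFMO lowered 2841 in Th17n and 2274 in iTreg, and raised 2426 and 2208. Chac1, which degrades glutathione, had 23.4, 19.3 and 22.9 CPM in Th17n DFMO libraries, against 17.9, 14.3 and 13.6 CPM in Th17n ctrl libraries. In iTreg, Chac1 had 10.4, 12.2 and 11.4 CPM in iTreg DFMO libraries, against 25.7, 37.4 and 42.5 CPM in iTreg ctrl libraries. Both pairs of groups were separate, in opposite directions, with an interaction of 2.17 ± 0.26 (adjusted p = 3.01e-06). Asns, asparagine synthetase, had 177, 224 and 174 CPM in Th17n DFMO libraries, against 204, 226 and 166 CPM in Th17n ctrl libraries, and 115, 179 and 135 CPM in iTreg DFMO libraries, against 288, 338 and 279 CPM in iTreg ctrl libraries. It changed without overlap in iTreg, while Th17n groups overlapped, and the interaction was 1.04 ± 0.14 (adjusted p = 1.64e-05). Both held in all 23 alternatives. Ddit3 (CHOP) averaged 74 ± 7.54 CPM in Th17n DFMO and 144 ± 2.55 CPM in Th17n ctrl, and 32.4 ± 4.13 CPM in iTreg DFMO and 125 ± 22.1 CPM in iTreg ctrl, an interaction of 0.99 ± 0.19 (adjusted p = 0.00128; 0.0502 and 0.0564 on TPM values). Trib3 had 1.04 ± 0.26 (adjusted p = 0.0103, lost without animal 1, 0.075, animal 3, 0.0994, and the Th17n ctrl library of animal 3, 0.0502). Nupr1 was the fifth. The list kept 3, 5 and 3 without animals 1, 2 and 3.

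**Figure D4:**
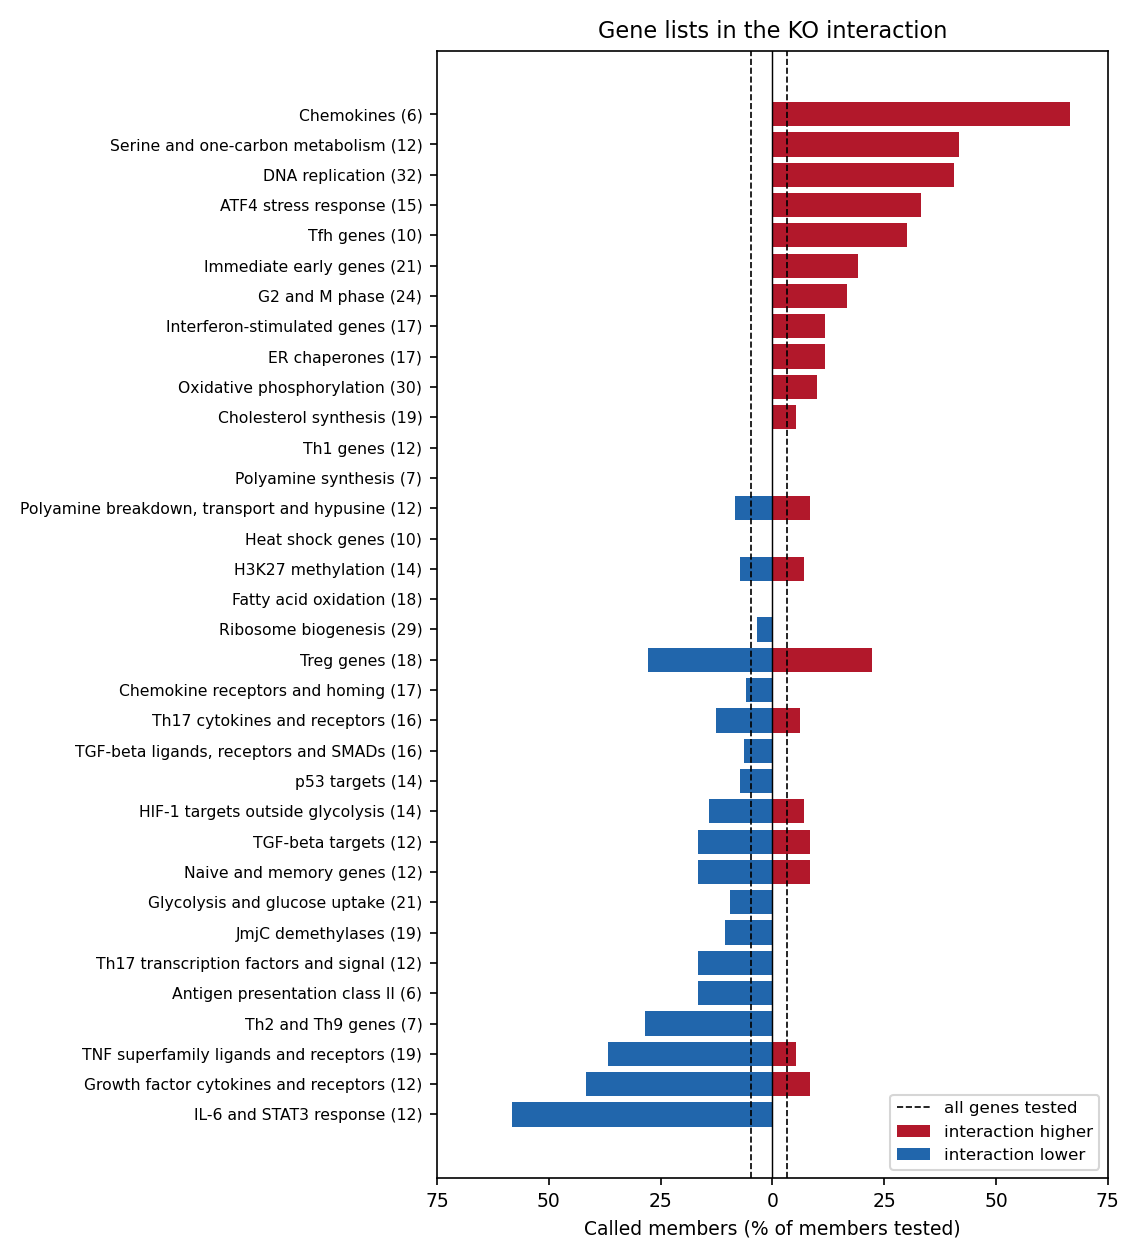
Called members of the 34 gene lists in the KO interaction, as a percentage of the members tested (number in brackets), with higher genes to the right and lower genes to the left of 0. Dashed lines mark 3.19% higher and 4.74% lower over all 10985 genes; chemokines (4 of 6 higher) and the IL-6 and STAT3 response (7 of 12 lower) lie at the 2 ends.

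The balance of some lists turned with the scaling. With library totals alone, higher against lower calls were 2 and 1 for Th17 cytokines and receptors, 2 and 1 for chemokine receptors and homing, 2 and 0 for naive and memory genes, 2 and 1 for H3K27 methylation and 3 and 1 for polyamine breakdown, transport and hypusine. On log2(TPM + 1) values chemokines had 4 higher and 2 lower calls.

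Energy metabolism was described by 5 lists, beside 3.19% of all genes called higher and 4.74% lower. Of 21 glycolysis genes, DFMO lowered 16 in Th17n and 12 in iTreg, beside 2841 and 2274 of all 10985 genes. A lower interaction was called for 2 of the 21. Gapdh, whose pseudogenes may share reads, averaged 5971 ± 295 CPM in Th17n DFMO and 9581 ± 328 CPM in Th17n ctrl, and 4878 ± 168 CPM in iTreg DFMO and 5006 ± 362 CPM in iTreg ctrl, an interaction of -0.65 ± 0.11 (adjusted p = 0.000476, lost without animal 1, 0.0648). Pgam1 had -0.55 ± 0.11 (adjusted p = 0.00141, lost without animal 3, 0.0588). Of 14 other HIF-1 targets, Bnip3l, a mitophagy receptor, was lower, averaging 182 ± 4.17 CPM in Th17n DFMO and 563 ± 12.9 CPM in Th17n ctrl, and 95.2 ± 11.9 CPM in iTreg DFMO and 168 ± 10.6 CPM in iTreg ctrl, with -0.81 ± 0.13 (adjusted p = 0.000248). Anxa2, a membrane-binding protein, was higher, averaging 569 ± 14.4 CPM in Th17n DFMO and 1720 ± 61.3 CPM in Th17n ctrl, and 89.1 ± 1.11 CPM in iTreg DFMO and 464 ± 31.1 CPM in iTreg ctrl, with 0.78 ± 0.14 (adjusted p = 0.000469). Both held in all 23 alternatives. Egln3 was lower (-0.57 ± 0.16, adjusted p = 0.023) in 9 of 23.

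Oxidative phosphorylation genes rose with DFMO for 19 of 30 in Th17n and 13 in iTreg, beside 2426 and 2208 of all 10985 genes. Of the 30, 3 had a higher interaction, beside 3.19% of all genes. These were the respiratory chain subunits Ndufb8 (0.55 ± 0.13, adjusted p = 0.0068, lost without animal 2, 0.102, and animal 3, 0.0631), Ndufa4 (0.41 ± 0.13, adjusted p = 0.0441) and Ndufa5 (0.55 ± 0.17, adjusted p = 0.0447), of which the last 2 kept the call in 12 and 13 of 23 alternatives. With library totals alone 12 were higher, and without animal 3 none. Of 18 fatty acid oxidation genes none was called, and of 19 cholesterol synthesis genes Fdps was higher (0.43 ± 0.13, adjusted p = 0.0453) in 11 of 23 alternatives.

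Most ribosome biogenesis and heat shock genes tested rose in both cultures. Over all 10985 genes, the interaction was higher for 3.19% and lower for 4.74%. DFMO raised 2426 of all 10985 genes in Th17n and 2208 in iTreg. It raised 26 of 29 ribosome biogenesis genes in Th17n and 25 in iTreg, with medians of 1.14 and 1.02 log2. Of these, Tsr1 had a lower interaction (-0.51 ± 0.12, adjusted p = 0.0104), kept in 11 of 23 alternatives, and the count went to 3 higher and 0 lower on log2(TPM + 1) and 7 higher and 0 lower with library totals alone. Of 10 heat shock genes 7 rose in Th17n and 9 in iTreg, and none was called in the interaction. Of 17 ER chaperones, 14 rose in Th17n and 9 in iTreg, and Manf (0.55 ± 0.16, adjusted p = 0.029) and Herpud1 (0.51 ± 0.13, adjusted p = 0.017) were higher, both lost when all libraries of any 1 animal were left out.

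Of 7 polyamine synthesis genes tested, none had a called interaction, and the median was 0.05. Of 12 genes of polyamine breakdown, transport and hypusine, 2 were called, beside 7.93% of all genes. Eif5a, the protein that carries hypusine, had 2688, 2554 and 2636 CPM in Th17n DFMO libraries, against 2059, 2019 and 2021 CPM in Th17n ctrl libraries. In iTreg, Eif5a had 2853, 2712 and 2676 CPM in iTreg DFMO libraries, against 1271, 1326 and 1262 CPM in iTreg ctrl libraries. DFMO raised it in both cultures without overlap, by 0.37 log2 in Th17n and 1.09 in iTreg, an interaction of -0.72 ± 0.09 (adjusted p = 5.33e-06, held in all 23 alternatives). Paox, the polyamine oxidase, had 18.9, 16.8 and 25 CPM in Th17n DFMO libraries, against 16.5, 20.3 and 17.9 CPM in Th17n ctrl libraries, and 16, 20.5 and 20.9 CPM in iTreg DFMO libraries, against 39.5, 32.9 and 35.5 CPM in iTreg ctrl libraries. Its Th17n groups overlapped and its iTreg groups did not, and the interaction of 1.06 ± 0.31 (adjusted p = 0.033) was kept in 16 of 23 alternatives and lost without animal 1 (0.251) and animal 3 (0.232).

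Chromatin genes were described by 2 lists, beside 3.19% of all genes called higher and 4.74% lower. Of 19 JmjC genes, Jmjd6 (-0.78 ± 0.16, adjusted p = 0.00166) and Kdm4b (-0.78 ± 0.25, adjusted p = 0.0499) were lower, in 20 and 5 of 23 alternatives, and on log2(TPM + 1) values the list had 1 higher and 0 lower. Jmjd6 was lost without animal 1 (0.0522). Of 14 genes of H3K27 methylation, Aebp2, an accessory protein of PRC2, was lower. It had 75.6, 82.4 and 75.8 CPM in Th17n DFMO libraries, against 128, 148 and 139 CPM in Th17n ctrl libraries, without overlap, and 38.3, 40.6 and 41.5 CPM in iTreg DFMO libraries, against 32.6, 46.5 and 26.1 CPM in iTreg ctrl libraries, with overlap, an interaction of -1.04 ± 0.18 (adjusted p = 0.000462, held in all 23 alternatives). Phf19, another PRC2 partner, was higher (0.73 ± 0.22, adjusted p = 0.0424) in 6 of 23 alternatives.

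Of 17 interferon-stimulated genes, Bst2 (0.79 ± 0.19, adjusted p = 0.00703) and Ifit2 (1.61 ± 0.50, adjusted p = 0.0477) were higher, beside 3.19% of all genes. The median was 0.73. DFMO lowered 4 of the 17 in Th17n and 11 in iTreg, beside 2841 and 2274 of all 10985 genes. Bst2, a tether of budding virus, averaged 72.7 ± 4.68 CPM in Th17n DFMO and 78.9 ± 7.81 CPM in Th17n ctrl, and 64.1 ± 5.9 CPM in iTreg DFMO and 120.5 ± 6.4 CPM in iTreg ctrl, and was lost without animal 2 (0.0507) and animal 3 (0.0897), while Ifit2 kept the call in 7 of 23 alternatives. Of 6 class II genes, DFMO lowered 5 in each culture, beside 2841 of all 10985 genes in Th17n and 2274 in iTreg. H2-DMb1 had a lower interaction (-2.96 ± 0.88, adjusted p = 0.0351) in 11 of 23 alternatives, resting on 4 counts over the Th17n DFMO libraries. A lower interaction was called for 4.74% of all genes.

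Markers of cell types were read beside these genes. Of 8 T cell markers, Cd4 (-0.62 ± 0.12, adjusted p = 0.00172), Cd247 (-0.78 ± 0.18, adjusted p = 0.00614) and Cd3e (-0.57 ± 0.13, adjusted p = 0.0063) had a lower interaction. Over all genes, 4.74% were lower. Cd4 had 274, 282 and 288 CPM in Th17n DFMO libraries, against 497, 545 and 506 CPM in Th17n ctrl libraries, and 492, 526 and 591 CPM in iTreg DFMO libraries, against 636, 576 and 708 CPM in iTreg ctrl libraries. In bulk cultures fewer cells of a type and less RNA per cell cannot be told apart. Cd4 was lost without animal 2 (0.0567), Cd247 without animals 1 (0.0753) and 3 (0.121), and Cd3e without animal 1 (0.273) and 3 single libraries of animals 1 and 2.

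Markers of other cells were low. The B cell marker Cd79b had 0.9, 0.989 and 1.05 CPM in Th17n DFMO libraries, against 1.83, 2.39 and 3.53 CPM in Th17n ctrl libraries, and 20.2, 12.2 and 20 CPM in iTreg DFMO libraries, against 13.4, 9.46 and 11.4 CPM in iTreg ctrl libraries, with an interaction of -2.02 ± 0.55 (adjusted p = 0.0203, kept in 14 of 23 alternatives). The 7 B cell markers summed to 0.989 to 3.16 CPM in Th17n DFMO and 2.75 to 4.28 CPM in Th17n ctrl, against 13.8 to 21.4 CPM in iTreg DFMO and 13.0 to 15.2 CPM in iTreg ctrl, with Blk at 0 in all 4 groups. The 9 myeloid markers summed to 2.53 to 5.18 CPM in Th17n DFMO and 15.5 to 17.9 CPM in Th17n ctrl, and to 3.07 to 4.06 CPM in iTreg DFMO and 3.29 to 10.0 CPM in iTreg ctrl. Lyz2, C1qa and C1qb were at 0 in all 4 groups. The 6 markers of stroma and endothelium summed to 13.9 to 18.6 CPM in Th17n DFMO and 47.1 to 71.6 CPM in Th17n ctrl, and to 11.98 to 13.8 CPM in iTreg DFMO and 29.7 to 36.6 CPM in iTreg ctrl. Pecam1, the tested one, changed by -1.79 log2 in Th17n and -1.37 in iTreg, and its interaction of -0.41 was not called. The 2 CD8 markers summed to 10.9 to 12.4 CPM in Th17n DFMO and 22.5 to 25.9 CPM in Th17n ctrl, and to 18.1 to 24.6 CPM in iTreg DFMO and 18.5 to 24.3 CPM in iTreg ctrl. Of CD8, neutrophil, dendritic and NK markers, 1, 1, 2 and 3 were tested, and none had a called interaction. No red cell or gamma delta T cell marker was tested. DFMO changed Cd8b1 by -1.08 log2 in Th17n (adjusted p = 0.000148, edgeR). In iTreg it changed Zbtb46 by -1.33 (0.00145) and Batf3 by 0.77 (0.00559). Myeloid Cd68 changed by -2.34 log2 in Th17n, and its interaction of -1.91 just missed the threshold (adjusted p = 0.05005). Mpeg1, the other myeloid marker tested, was not called. The part of these markers in the results was not tested.

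The same interaction in WT, from 4 other animals rather than 3, was called for 1354 genes (12.3%, 528 higher and 826 lower). Of the KO calls, 549 were also called in WT, which is 63.0% of the KO list and 40.5% of the WT list, and 548 of these had the same direction. Of the 871 KO calls, 849 had the same sign in WT. The share of equal signs over all genes tested is not given here, so this count has no baseline. The interaction was 2.196 for Foxp3 (adjusted p = 2.04e-06), 2.32 for Tgm2 (adjusted p = 1.9e-06), -4.04 for Crispld2 (adjusted p = 9.29e-11) and -4.98 for Adm (adjusted p = 4.63e-09) in WT. Across genes with a mean of at least 10 CPM (8127 genes), KO and WT interactions had a Pearson correlation of 0.667, as a description. Across all genes tested it was 0.460.

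No gene passed the test of the difference between the KO and WT interactions (0%; edgeR, 578 genes at an unadjusted p under 0.05, smallest adjusted p 0.124). With 7 animals this does not show that the interactions were alike. DESeq2 called 2 genes, Inhba and Sgk1, and 42 genes were called without the filter on low counts. Haao, which encodes an enzyme of tryptophan breakdown, and Inhba had the smallest adjusted p, at 0.124 each. The Haao interaction was -2.31 in KO and 0.71 in WT, a difference of -3.02 ± 0.58. Inhba in iTreg ctrl had 0 CPM in all 3 KO libraries and 6.05, 2.77, 1.58 and 4.18 CPM in the WT libraries, where its interaction was 1.66 (adjusted p = 0.00377). Haao and Sgk1 were named after their values were seen. Slamf6 was called in KO and not in WT (0.79, adjusted p = 0.0754), a difference that did not pass the test.

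**Figure D5:**
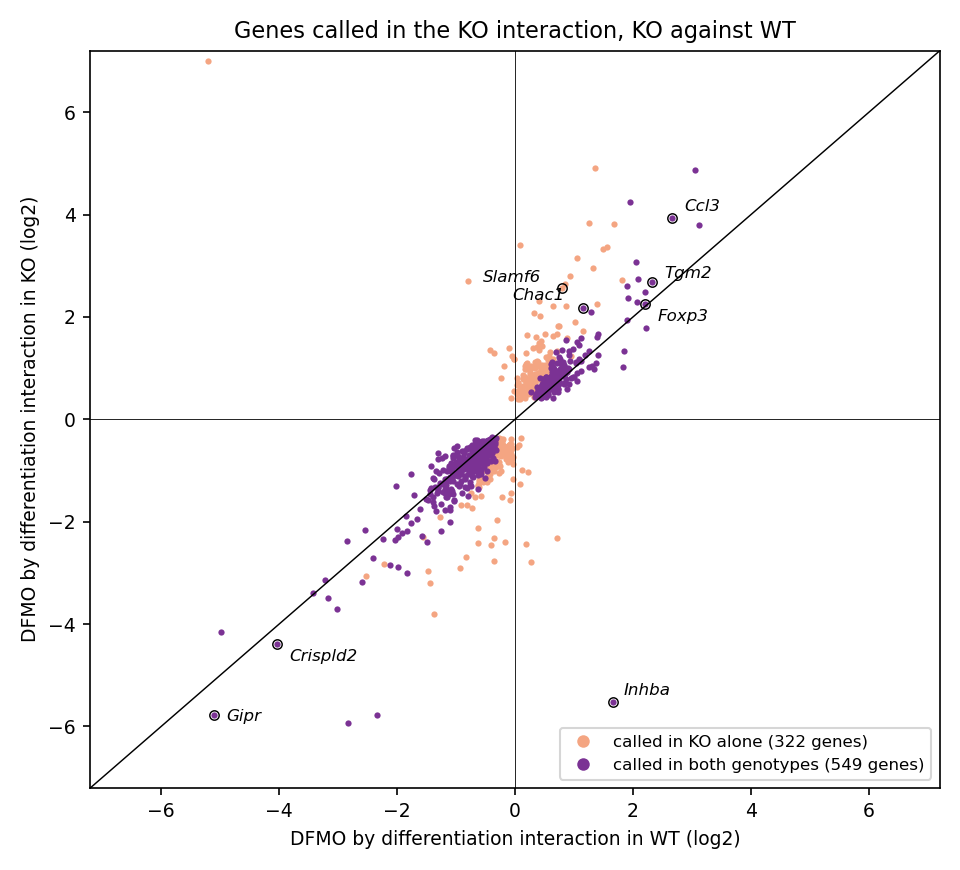
Interaction in WT (horizontal, log2) and KO (vertical, log2) for the 871 genes called in KO; 549 were called in both genotypes and 322 in KO alone, the diagonal marks equal values, and 1 gene beyond 7 log2 units is drawn at the edge. Since genes were chosen on the KO axis, none lies near 0 on it; Inhba, with 0 counts in iTreg ctrl of KO, stands in the lower right.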

How the data were processed

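The 28 libraries were RNA-seq of sorted live cells, with paired reads of 75 bp per the labels' protocols. The authors deposited estimated counts for 20891 genes, from kallisto with GRCm38 per the submitters' processing notes (version not given in the sources used here), and TPM values, used here in 1 kind of alternative. Of the deposited estimated counts 67.2% were whole within 0.001; all were rounded to whole numbers.

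Counts were fitted in edgeR 4.0.16 (R 4.3.3, limma 3.58.1) with TMM scaling and edgeR's filter on low counts, over all 28 libraries, with animal as a block and the culture effects of each genotype (15 residual degrees of freedom). Standard errors were derived from the quasi-likelihood F. Animals, named in the labels, pair the libraries. Deviations of same-animal KO libraries from their group means had a median correlation of 0.067 (-0.022 to 0.218), with 6 of 18 pairs over 0.1. Such deviations sum to 0 within a group. The median for other animals, -0.029, is therefore tied to the first value and is no separate baseline. Levels are CPM, mean ± SD. Positions and names came from GENCODE M21. Strand use was not stated, so overlapping genes cannot be told apart.

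Genes named were Il17a, Il17f, Il23r, Foxp3, Kdm6b, Odc1 and Srm; the 10 largest called changes each way with at least 10 CPM in a KO group and the same sign in all 3 animals; and up to 4 called members of smallest adjusted p per list; a few results are not reported here. Members and lists (514 genes tested) were chosen with earlier results of these data known. In a test on counts simulated for the KO interaction (10985 genes), changes were placed only in genes with a mean of at least 10 CPM. It found 13.4% of 67 1.5-fold, 71.6% of 67 2-fold and 97.0% of 66 4-fold changes and made 6 false calls. These shares do not cover genes of lower level. Alternatives included DESeq2 1.42.0, other scaling, no filter, no block, KO libraries alone, TPM, and leaving out each animal or library; scaling by library totals alone was added after seeing the data.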

Additional observations from a re-analysis of the deposited data

Results flagged for a closer look

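The interaction itself is a tested difference between cultures, by edgeR's quasi-likelihood test. The DFMO effect differed between Th17n and iTreg for 871 genes in KO and for 1354 genes in WT. KO had 3 animals and WT 4, so these counts are not on equal terms. In KO, each group had 3 libraries and was not tested for outliers. In the 4 WT animals, paired interactions of 28 genes were tested, of which chance flags about 1 in 20. For Ccl20, WT animal 2 gave 3.09 log2, far from the other animals at 1.13 to 1.21. Its iTreg DFMO library had 0.594 CPM, against 4.86, 7.22 and 5.21 CPM in the other iTreg DFMO libraries.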

How the results depend on the processing

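The counts of genes for DFMO in KO Th17n (4089 to 5483) and in KO iTreg (3212 to 4671) stayed within 1.5 times under every alternative run. The KO interaction count was 648 without the replicate block (the unpaired fit; 242 higher, 406 lower), 879 with relative log expression factors, 966 without the filter, 1110 in KO libraries alone, 867 with DESeq2, 742 on log2(TPM + 0.1) and 854 on log2(TPM + 1), and 286, 476 and 362 without animals 1, 2 and 3, reaching 811 when 1 library was left out. The WT interaction count was 704 to 1431 in such fits, at 856 without animal 1 and 704 without animal 3. The difference between KO and WT gave 42 genes without the filter, 2 with DESeq2 (Inhba and Sgk1), 1 on log2(TPM + 0.1) (Haao) and 0 to 1 when 1 animal or library was left out: Sgk1 without the iTreg ctrl library of KO animal 2, Haao without the Th17n DFMO library of WT animal 1 and Inhba without the iTreg DFMO library of KO animal 2. The causes were not tested.

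Of 93 named genes with a call, 31 kept it in all 23 alternatives. Estimates changed sign for Srm (0.0075 without the filter, 0.074 and 0.078 on TPM with pseudocounts of 1 and 0.1, 0.12 with library totals, 0.059 without animal 1, 0.15 without animal 3, and -0.20 to 0.19 without single libraries), Il23r (-0.38 and -0.031 on TPM, -1.02 without animal 2, and -0.79 to 2.97 without single libraries) and Bach2 (0.070 and 0.073 on TPM). They also did so for Il17f (1.26 without animal 2, -1.78 to 0.64 without single libraries), Kdm6b (-0.19 without animal 2, -0.051 to 0.32 without single libraries) and Odc1 (-0.050 and -0.043 without animals 2 and 3, -0.039 to 0.20 without single libraries). Of these, Bach2 was the one called in the reported fit. Depth limits genes with few counts in a group, such as Ccl3, Dapk2, Gipr and Inhba.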

Other observations

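Several genes outside the naming rule had smaller adjusted p than most named ones; they were chosen after their values were seen, as the 12 smallest. All 12 were lower. Cd82, a tetraspanin, had 316, 327 and 349 CPM in Th17n DFMO libraries, against 529, 627 and 594 CPM in Th17n ctrl libraries, and 811, 758 and 912 CPM in iTreg DFMO libraries, against 405, 461 and 485 CPM in iTreg ctrl libraries. It fell in Th17n and rose in iTreg without overlap, with an interaction of -1.70 ± 0.11 (adjusted p = 3.07e-11, edgeR). Ccnd2, cyclin D2, had 382, 383 and 394 CPM in Th17n DFMO libraries, against 519, 527 and 524 CPM in Th17n ctrl libraries, and 891, 746 and 935 CPM in iTreg DFMO libraries, against 521, 524 and 528 CPM in iTreg ctrl libraries. The ctrl levels of both cultures were close, and DFMO moved them apart, with an interaction of -1.14 ± 0.13 (adjusted p = 2.24e-06). The histone methyltransferase gene Smyd2 (-1.52 ± 0.16, adjusted p = 5.39e-07) and Rrp1b (-1.35 ± 0.15, adjusted p = 1.04e-06) also fell in Th17n and rose in iTreg.

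Stat5a, which signals for IL-2, had 215, 217 and 197 CPM in Th17n DFMO libraries, against 490.1, 532 and 581.7 CPM in Th17n ctrl libraries. In iTreg it had 237, 231 and 269 CPM in iTreg DFMO libraries, against 229.5, 241 and 268 CPM in iTreg ctrl libraries, so that Th17n cells with DFMO lay near the iTreg level, with an interaction of -1.34 ± 0.16 (adjusted p = 2.53e-06). Fth1, the ferritin heavy chain, had 747, 767 and 819 CPM in Th17n DFMO libraries, against 1521, 1550 and 1557 CPM in Th17n ctrl libraries, and 651, 566 and 646 CPM in iTreg DFMO libraries, against 559, 543 and 584 CPM in iTreg ctrl libraries, an interaction of -1.13 ± 0.11 (adjusted p = 1.61e-07). Tspan13, Ablim1 and Madd were likewise lowered in Th17n and not called in iTreg. Cnp, Cytip and Prnp were lowered in both, and more in Th17n: Prnp, the prion protein, had 40.3, 53.4 and 46.9 CPM in Th17n DFMO libraries, against 195, 220.4 and 222 CPM in Th17n ctrl libraries, and 53.2, 48.3 and 55.6 CPM in iTreg DFMO libraries, against 83.6, 90.1 and 76.6 CPM in iTreg ctrl libraries, an interaction of -1.51 ± 0.17 (adjusted p = 1.25e-06).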
